A study of Arabidopsis thaliana with 12 samples.

Results

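Kinases transfer phosphate from ATP to proteins, lipids or small metabolites, and in plants the protein kinases form one of the largest gene families. Receptor-like kinases sit in the plasma membrane with a sensing domain outside the cell and a kinase domain inside, cytosolic and nuclear protein kinases pass signals on or act on the cell cycle and transcription machinery, and metabolic kinases commit sugars, nucleosides and lipids to their pathways. Alternative splicing of a kinase transcript can keep the reading frame or interrupt it, so a transcript may or may not encode the whole catalytic domain.

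Splicing events in genes annotated with a kinase were taken from the authors' deposited table of events that responded to a rise in ambient temperature in *Arabidopsis thaliana*. An event belonged to the set if the annotation text of its gene held the word kinase in upper or lower case, with 3 genes left out beforehand (AT5G47080, AT3G60250 and AT3G53570). This gave 45 of the 638 events in the table, in 34 of its 511 genes. The annotation divided them into 12 events in 7 receptor-like kinase genes, 21 events in 16 other protein kinase genes, 8 events in 7 metabolic and lipid kinase genes, and 4 events in 4 genes that are named after a kinase without being described as one.

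Plants of the wild type accession Columbia-0 were raised in short days (8 h light, 16 h dark) at 16 °C for 5 weeks. They were then either kept at 16 °C and sampled at day 1, or placed at 25 °C and sampled after 1, 3 and 5 days, with 3 samples in each of the 4 groups and about 10 plants in a sample. RNA came from tissue enriched for the shoot apical meristem; the labels also name young leaves, whereas the methods describe their removal, and the table holds no expression levels against which the tissue could be checked. All 3 warm groups were set against the same 16 °C group, so the plants sampled after 3 and 5 days were also older than the cool ones.

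For each event the table gives a single "percentage spliced in" (PSI) for each group, written from 0 to 1. PSI measures how large a share of the transcripts has the isoform set as reference. For a retained intron (RI) a high PSI is taken here to mean that most transcripts still contain it. The methods of the study do not name the reference isoform for this type. The other types are alternative 3′ and 5′ splice sites (A3 and A5), where the sources used here do not say which site is the reference, skipped exons (SE) and mutually exclusive exons (MXE). The depth behind each PSI is unknown, and with 1 pooled value in a group neither a spread between replicates nor a test could be had. Differences are therefore given as values only, and a difference of at least 0.1 in PSI stands in for a call. Every listed event was called by the authors on at least 1 warm day, so the whole table, and not unchanged events, is the background.

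Positions of the events inside their genes are not part of the table. In the RefSeq annotation of TAIR10.1, 14 of the 45 events could be paired with a single alternative. In these the gene had exactly 1 listed event and 1 annotated alternative of that type. For 11 events no alternative of their type was annotated. The other 20 had several candidates or shared their type with another event of the gene. The annotated candidates below show what kind of change in the message could lie behind a PSI value. They come from the RefSeq TAIR10.1 sequence and read 5′ to 3′ on the strand of the gene, with the part that can be present or absent in capitals and 10 flanking bases in lower case. Whether each is the event that was measured is not given.
AT2G36960 (*TKI1*) A3, chr2:15525312-15525314, plus strand: cctttttcagCAGgttatagaaa
AT1G67840 (*CSK*) A3, chr1:25436195-25436198, plus strand: tttatgtcagGAAGaccatgcgac
AT1G49730 A3, chr1:18403456-18403492, minus strand: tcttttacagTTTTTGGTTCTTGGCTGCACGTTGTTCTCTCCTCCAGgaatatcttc
AT1G13350 SE, chr1:4575915-4575995, minus strand: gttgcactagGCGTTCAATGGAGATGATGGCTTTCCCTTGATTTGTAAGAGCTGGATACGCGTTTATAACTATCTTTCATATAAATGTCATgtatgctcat
AT1G49180 RI, chr1:18184821-18184942, minus strand: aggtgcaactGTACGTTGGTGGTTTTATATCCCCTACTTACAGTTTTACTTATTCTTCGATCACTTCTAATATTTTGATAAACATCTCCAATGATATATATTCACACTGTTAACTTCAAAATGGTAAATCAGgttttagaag
AT5G51290 RI, chr5:20844968-20845104, minus strand: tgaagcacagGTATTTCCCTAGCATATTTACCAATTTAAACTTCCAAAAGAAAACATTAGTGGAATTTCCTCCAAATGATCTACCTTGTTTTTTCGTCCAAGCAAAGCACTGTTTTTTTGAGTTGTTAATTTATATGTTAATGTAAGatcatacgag
The first pair are short shifts between neighbouring acceptor sites. The 3 bases in *TKI1* add or remove 1 codon, whereas the 4 bases in *CSK* and the 37 bases in AT1G49730 move the reading frame. The skipped exon of AT1G13350 has 81 bases, a multiple of 3, and holds no in-frame stop codon, so both forms stay in frame. The introns of AT1G49180 and AT5G51290 do hold one, ending 103 bases into the 122-base intron and 136 bases into the 137-base intron. In AT1G49180 the annotated coding span ends at chr1:18184814, just after the intron. Its candidate therefore changes only the end of the coding sequence. For *UKL3*, AT2G31010, AT4G31240 and AT5G44290, the candidate lies outside the coding span, on its 5′ side.

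Across the set, PSI differed from 16 °C in both directions in about equal numbers, and the sizes were close to those of the whole table. After 1 day at 25 °C, 14 of the 45 events (31.1%) were at least 0.1 higher, beside 29.9% of all events, and 15 (33.3%) were at least 0.1 lower, beside 30.9%. After 3 days 15 events (33.3%) were higher, against 32.1% in the table, and 13 (28.9%) were lower, against 27.7%. On day 5, 15 events (33.3%) were higher and 14 (31.1%) lower, where the table had 27.7% and 28.7%. These member shares lie near the background on each day and are no result about kinases. The median absolute mean change over the 3 days was 0.13 for the kinase-annotated events and 0.113 for the table, with single events between 0.05 and 0.30. In all 45 events the difference from 16 °C had the same sign on the 3 days, as it had in 623 of the 638 events (97.6%); the 3 differences share the 16 °C value.

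**Figure D1:**
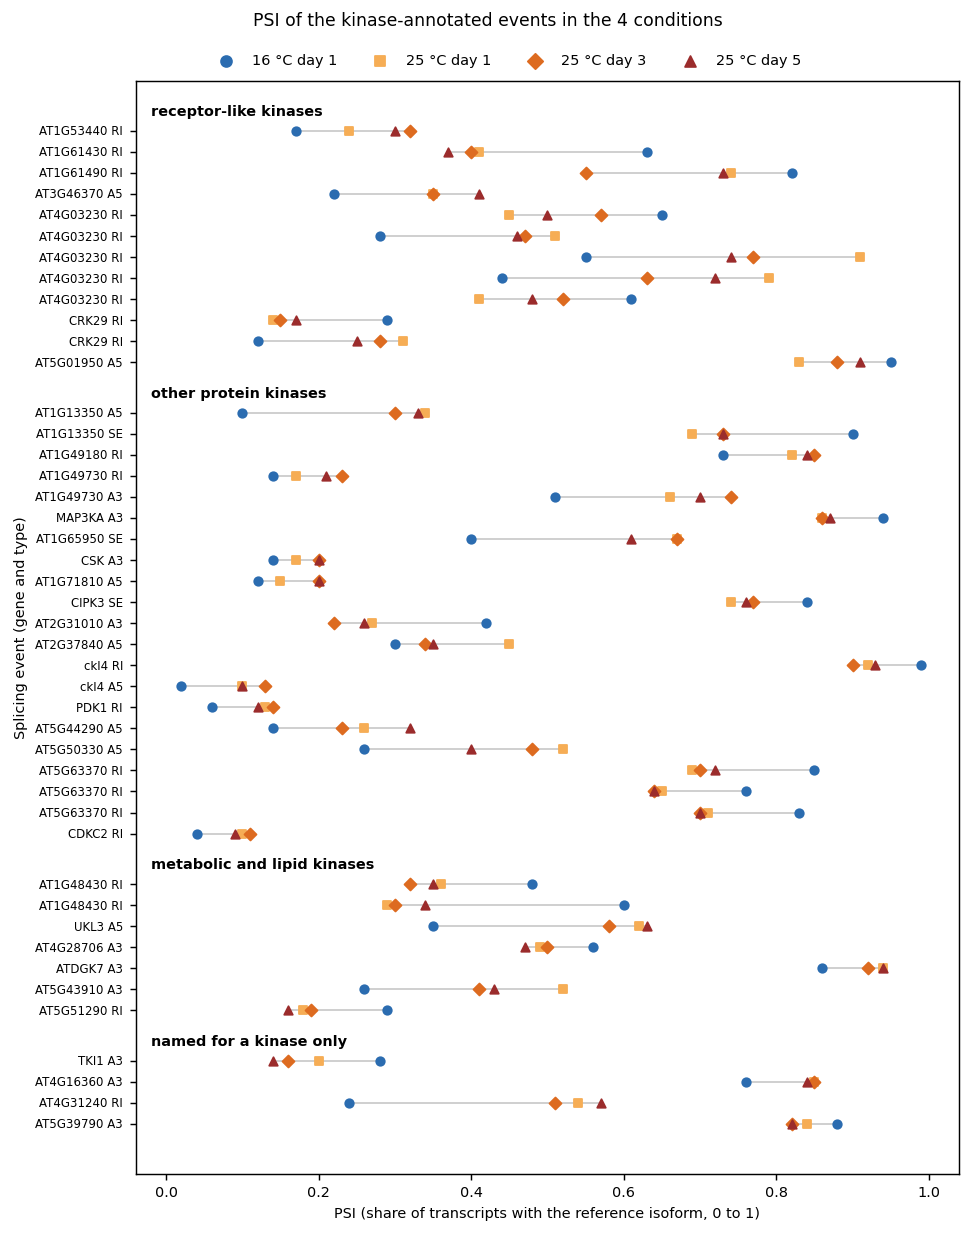
PSI (x axis, 0 to 1) of 44 kinase-annotated events (y axis, grouped by class) at 16 °C and after 1, 3 and 5 days at 25 °C; each symbol is the authors' single value for a group, and equal values lie on top of each other. In every event plotted the 16 °C symbol stands at one end of the line, apart from all 3 warm symbols, which reach from 0.30 higher to 0.29 lower when averaged over the days.

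The receptor-like kinases had the highest share of wide differences among the classes. In 7 of the 12 events (58.3%) PSI differed from 16 °C by at least 0.2 on some day, compared with 17 of 45 (37.8%) in the whole set and 179 of 638 (28.1%) in the table. Of these 7 events 5 belong to 1 gene, AT4G03230, and without it the count is 2 of 7 events. That share is below the 37.5% of the metabolic and lipid kinases, so the ranking rests on this gene. The median absolute mean change was 0.148, from 6 events that were higher and 6 that were lower on average.

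AT4G03230 (chr4:1419278-1422828), an S-locus lectin receptor-like kinase, a family that carries a lectin domain outside the cell, had 5 retained-intron events, more than any other gene of the set. PSI of the event numbered 6438 was 0.55 at 16 °C and 0.91, 0.77 and 0.74 after 1, 3 and 5 days at 25 °C. For event 6439 it was 0.44, then 0.79, 0.63 and 0.72. Event 6437 followed with 0.28 at 16 °C and 0.51, 0.47 and 0.46 in the warmth. In these 3 events retention was higher in every warm group, and highest on day 1. The remaining pair went the other way. Event 6436 had 0.65 at 16 °C and 0.45, 0.57 and 0.50 afterwards, and event 6440 had 0.61, then 0.41, 0.52 and 0.48. This pair differed from each other by at most 0.05 in any group, whereas 6438 and 6439 differed by up to 0.14. The gene overlaps another gene on the same strand, so reads may have been shared and its values are uncertain. Of the 34 genes 14 overlap another gene, 5 of them on the same strand. AT1G48430, AT1G49730, AT1G53440, AT1G71810, AT5G01950, AT5G04510, AT5G51290, AT5G63370 and AT5G64960 overlap a gene on the other strand only. Whether strand entered the PSI estimates is not given, so their values may be affected too.

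CRK29 (AT4G21410, chr4:11402463-11405025) is a cysteine-rich receptor-like kinase, a family whose members respond to pathogens and oxidative stress. It also had retained introns that moved apart. One had a PSI of 0.29 at 16 °C and 0.14, 0.15 and 0.17 after 1, 3 and 5 days at 25 °C, while the other went from 0.12 to 0.31, 0.28 and 0.25. The order of the introns was thus exchanged in all 3 warm groups, and their sum stayed between 0.41 and 0.45. CRK29 also overlaps genes on its own strand.

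Another pair of S-locus lectin kinases both retained less of an intron at 25 °C. AT1G61430 (chr1:22664669-22667769) had 0.63 at 16 °C and 0.41, 0.40 and 0.37 after 1, 3 and 5 days. AT1G61490 (chr1:22685154-22688267) had 0.82, then 0.74, 0.55 and 0.73, so that its low value was that of day 3 alone, while days 1 and 5 were within 0.01 of each other. Part of the coding sequence of AT1G61430 is 92.5% identical to that of AT1G61440 over 897 bases, and AT1G61430 overlaps a gene on the same strand, so reads may have been shared.

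The 3 leucine-rich repeat kinases, whose repeats commonly bind peptides or hormones, stayed under a difference of 0.2 on each day. In AT1G53440 (chr1:19945959-19951562) intron retention was 0.17 at 16 °C and 0.24, 0.32 and 0.30 after 1, 3 and 5 days. This gene is 90.6% identical to AT1G53430 in its coding sequence. The A5 event of AT3G46370 (chr3:17051955-17055514) had 0.22, then 0.35, 0.35 and 0.41, with day 5 furthest from the cool group. That of AT5G01950 (chr5:365040-369532) had 0.95, then 0.83, 0.88 and 0.91, and here day 5 was nearest to it.

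**Figure D2:**
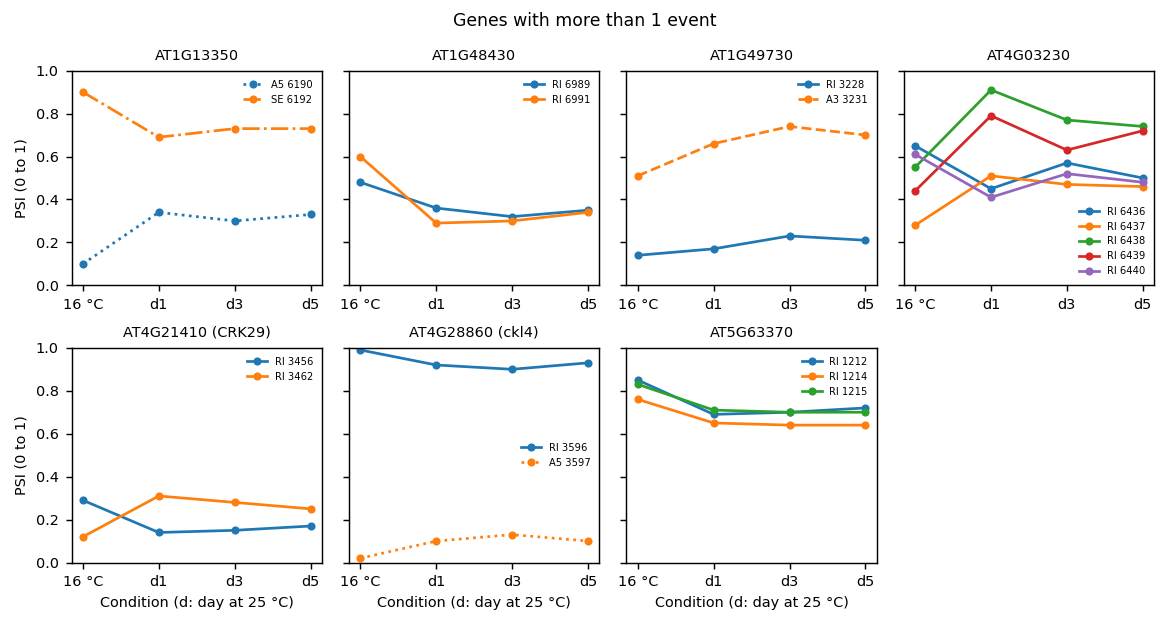
PSI (y axis, 0 to 1) at 16 °C and after 1, 3 and 5 days at 25 °C (x axis) in the 7 kinase-annotated genes with more than 1 event; each line is an event with its type and number, and each point is 1 pooled value. Events of AT4G03230 and of CRK29 go in opposite directions, whereas the 3 introns of AT5G63370 all have lower values at 25 °C.

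Among the 21 events of the other protein kinases, 13 had higher and 8 had lower PSI on average, and 6 (28.6%) differed by at least 0.2 on some day. The median absolute mean change was 0.107. The largest mean changes were found in genes that the table describes only as protein kinase superfamily members. The skipped exon event of AT1G65950 (chr1:24546860-24551119) had a PSI of 0.40 at 16 °C and 0.67, 0.67 and 0.61 after 1, 3 and 5 days. The A5 event of AT5G50330 (chr5:20485406-20488563) had 0.26, then 0.52, 0.48 and 0.40. AT5G50330 thus moved back towards the cool value, with day 5 lower than day 1 by 0.12, while AT1G65950 differed by 0.06 between these days.

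AT1G13350 (chr1:4572502-4576547) carried an A5 event with 0.10 at 16 °C and 0.34, 0.30 and 0.33 after 1, 3 and 5 days, and a skipped exon event with 0.90, then 0.69, 0.73 and 0.73. The values mirrored each other, with sums of 1.00, 1.03, 1.03 and 1.06 in the 4 groups. The exon printed above is the only skipped exon annotated in this gene. Over 1071 bases its coding sequence is 92.3% identical to that of AT3G53640. The same kind of mirror was seen in *ckl4* (AT4G28860, chr4:14246359-14248823), a member of the casein kinase I family of serine/threonine kinases. Its retained intron had 0.99 at 16 °C and 0.92, 0.90 and 0.93 in the warmth, and its A5 event had 0.02, then 0.10, 0.13 and 0.10, with sums between 1.01 and 1.03. The only intron annotated as retained in *ckl4* starts at chr4:14248791 and brings an in-frame stop codon after 33 bases. That stop is where the coding span given above ends, so it is the usual end of the protein annotated there. The coding sequence of *ckl4* is 91.5% identical to that of AT4G28880. Whether such mirrored pairs count the same reads was not tested.

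AT1G49730 (chr1:18402618-18405548) had an A3 event with 0.51 at 16 °C and 0.66, 0.74 and 0.70 after 1, 3 and 5 days, and a retained intron with 0.14, then 0.17, 0.23 and 0.21. Both were highest on day 3. The only annotated A3 alternative of this gene is the 37-base stretch printed above. In AT2G31010 (chr2:13194939-13199642) the A3 event went the other way, with 0.42 at 16 °C and 0.27, 0.22 and 0.26 afterwards.

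The cyclin-dependent kinases were represented by AT5G63370 (chr5:25384954-25386792), listed as *CDKG1* in RefSeq, and *CDKC2* (AT5G64960, chr5:25956150-25958427). CDKG1 has been linked to the splicing of other transcripts and to chromosome pairing at high ambient temperature, and CDKC2 phosphorylates the tail of RNA polymerase II. All 3 retained introns of AT5G63370 had lower PSI at 25 °C. They had 0.85, 0.76 and 0.83 at 16 °C, and 0.69, 0.65 and 0.71 on day 1. On day 3 the values were 0.70, 0.64 and 0.70, and on day 5 they were 0.72, 0.64 and 0.70. Those listed first and last in each sentence differed by at most 0.02 in any group. The retained intron of *CDKC2*, in contrast, had 0.04 at 16 °C and 0.10, 0.11 and 0.09 in the warmth, a small difference at the low end of the scale.

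Kinases of defined signalling cascades showed differences of up to 0.10. *PDK1* (AT5G04510), which activates AGC kinases downstream of lipid signals, retained an intron in 0.06 of transcripts at 16 °C and in 0.13, 0.14 and 0.12 after 1, 3 and 5 days. The skipped exon event of *CIPK3* (AT2G26980), a kinase steered by calcium-binding CBL proteins, had 0.84, then 0.74, 0.77 and 0.76. The A3 event of *MAP3KA* (AT1G53570), at the top of a MAP kinase cascade, had 0.94, then 0.86, 0.86 and 0.87. *CSK* (AT1G67840), the chloroplast sensor kinase that ties plastid transcription to photosynthetic electron flow, had 0.14, then 0.17, 0.20 and 0.20 for the short acceptor shift printed above, if that is the event measured. In these 4 genes the 3 warm values lay within 0.03 of each other.

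The remaining protein kinases have no further description in the table. In AT1G49180 the printed candidate intron holds a stop codon close to the end of the coding span. PSI of the retained-intron event of this gene was 0.73 at 16 °C and 0.82, 0.85 and 0.84 after 1, 3 and 5 days. The A5 events of AT1G71810 (0.12, then 0.15, 0.20 and 0.20) and of AT5G44290 (0.14, then 0.26, 0.23 and 0.32) were both highest on day 5, in the first gene together with day 3. That of AT2G37840 had 0.30, then 0.45, 0.34 and 0.35, so that only day 1 stood at least 0.1 away from the cool group.

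The metabolic and lipid kinases had 3 events with higher and 5 with lower PSI on average, a median absolute mean change of 0.125, and 3 of 8 events (37.5%) with a difference of at least 0.2 on some day. Both retained introns of AT1G48430 (chr1:17902874-17906689), a dihydroxyacetone kinase that feeds a triose into glycolytic metabolism, were lower. Event 6991 had 0.60 at 16 °C and 0.29, 0.30 and 0.34 after 1, 3 and 5 days, and event 6989 had 0.48, then 0.36, 0.32 and 0.35. The introns lay 0.12 apart in the cool group and no more than 0.07 apart in the warm ones. The A5 event of *UKL3* (AT1G55810, chr1:20861273-20864003), a uridine kinase-like protein of nucleotide salvage, had 0.35 at 16 °C and 0.62, 0.58 and 0.63 in the warmth.

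Of the pfkB-type carbohydrate kinases, which phosphorylate sugars and related compounds, AT5G43910 (chr5:17667942-17670085) had an A3 event with 0.26 at 16 °C and 0.52, 0.41 and 0.43 after 1, 3 and 5 days. The A3 event of AT4G28706 (chr4:14167805-14172254) had 0.56, then 0.49, 0.50 and 0.47. PSI thus moved in opposite directions in this pair. Since the reference site of A3 events is not given, the use of the sites cannot be compared between them. Both genes overlap another gene on the same strand.

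AT5G51290 (chr5:20844252-20848157), annotated in the table as a diacylglycerol kinase family protein and named *ACD5* in RefSeq, a ceramide kinase that restrains cell death, had an intron retained in 0.29 of transcripts at 16 °C and in 0.18, 0.19 and 0.16 after 1, 3 and 5 days. Its candidate intron, printed above, ends 1 base after the stop codon. Like both introns of AT1G48430, it was among the 4 retained-intron events of this class, all of which were lower at 25 °C on every day. These 4 events lie in only 3 genes, and 127 of the 246 retained introns in the table were also lower on average. The A3 event of *DGK7* (AT4G30340), an enzyme that turns diacylglycerol into phosphatidic acid, had 0.86, then 0.94, 0.92 and 0.94.

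Of the 4 genes that are named after a kinase only, AT4G31240 (chr4:15176637-15177986) had the largest mean change of all 45 events. It is annotated as a protein kinase C-like zinc finger protein in the table and as nucleoredoxin *NRX2*, a thioredoxin-like protein, in RefSeq. Its retained intron had 0.24 at 16 °C and 0.54, 0.51 and 0.57 after 1, 3 and 5 days, a mean difference of 0.30. The A3 event of AT4G16360, a beta subunit of the SnRK1 energy-sensing kinase that is the plant relative of AMPK, had 0.76, then 0.85, 0.85 and 0.84. AT5G39790, annotated as AMPK-related, had 0.88, then 0.84, 0.82 and 0.82 for its A3 event. *TKI1* (AT2G36960, chr2:15523552-15527245), a partner of the TOUSLED kinase, had 0.28, then 0.20, 0.16 and 0.14, a difference that widened over the days; the codon-sized shift printed above is its only annotated A3 alternative.

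**Figure D3:**
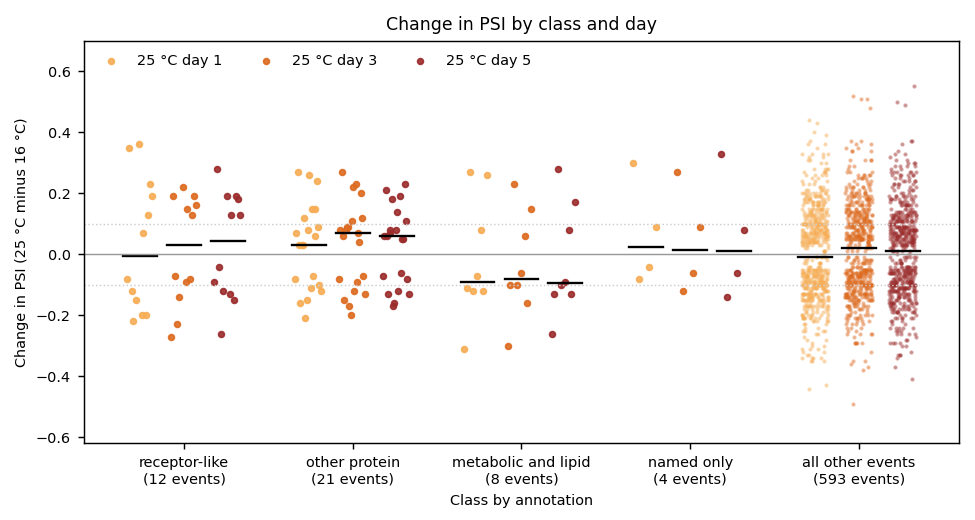
Change in PSI (y axis, 25 °C minus 16 °C) after 1, 3 and 5 days (colours) for each kinase class and for the 593 other events of the table (x axis); each point is an event, black bars are medians and dotted lines mark 0.1 in either direction. Points of every class lie on both sides of 0, and the metabolic and lipid kinases have medians below it on all 3 days.

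Retained introns were the most frequent type, with 23 of 45 events (51.1%) against 246 of 638 (38.6%) in the table. A3 events made up 22.2% (33.4% in the table), A5 events 20% (17.6%) and skipped exons 6.67% (10.2%), and none of the 2 MXE events of the table was in a kinase-annotated gene. Since 5 of the 23 retained introns lie in AT4G03230 and 3 in AT5G63370, events of a type are not independent. On average over the days, 10 retained introns had higher and 13 lower PSI, beside 119 and 127 in the table. Of the 9 A5 events 8 were higher, AT5G01950 being the exception, where the table had 62 higher and 50 lower. All 6 A5 events of the other protein kinases were among the higher ones. Which site is the reference is not given for A5 events, so a higher PSI has no common meaning across these genes. In AT1G13350 and *ckl4* the A5 values also mirrored those of another event of the gene. A3 events were split evenly, with PSI higher in 5 and lower in 5, and their reference site is not given either.

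Between the first and the last warm day, which can be compared without the 16 °C group, most members changed little. PSI on day 5 differed from that on day 1 by at least 0.1 in 3 of 45 events (6.67%), compared with 11.4% of the table. These were event 6438 of AT4G03230 (0.91 and 0.74), the A5 event of AT5G50330 (0.52 and 0.40) and the A5 event of AT2G37840 (0.45 and 0.35), all lower on day 5. Days 1 and 5 lay apart by a median of 0.03 (absolute difference) in the members and in the table alike. Day 5 was nearer to the 16 °C value than day 1 in 23 events, further from it in 20 and equally far in 2, where the table had 317, 262 and 59, so these counts are no result about kinases either.

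**Figure D4:**
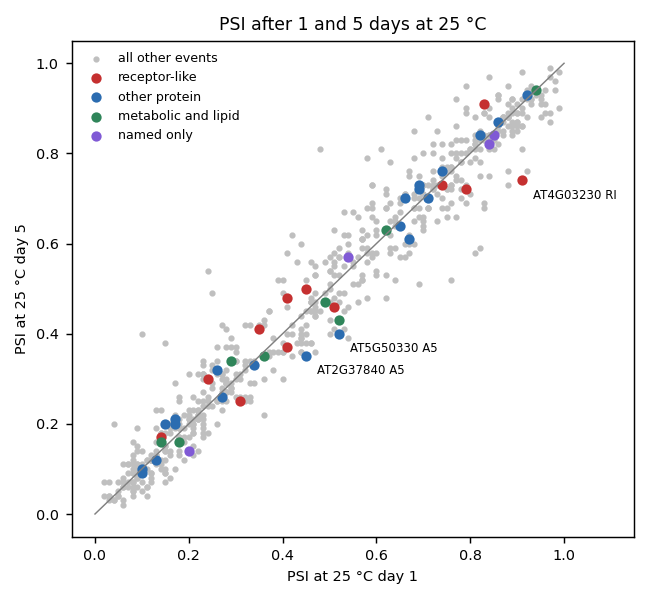
PSI after 5 days at 25 °C (y axis, 0 to 1) against PSI after 1 day (x axis, 0 to 1) for the kinase-annotated events, coloured by class, and all other events in grey; the line marks equal values. The 3 labelled events differ by at least 0.1 between the days and lie below the line.

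Phosphatases, the enzymes that remove phosphate, were looked up in the same table by the word phosphatase in the annotation, which found 13 events in 10 genes. At least 0.1 higher than at 16 °C were 3 of them on day 1, 3 on day 3 and 2 on day 5, and at least 0.1 lower were 5, 4 and 3. Of all events in the table, 29.9%, 32.1% and 27.7% were higher on these days, and 30.9%, 27.7% and 28.7% were lower. The 13 events are too few for these counts to be a result about phosphatases. The keyword also drew in AT1G53780, a nucleoside-triphosphatase, and AT1G07110, whose protein makes and degrades the glycolytic regulator fructose-2,6-bisphosphate. The annotation of AT1G07110 reads fructose-2,6-bisphosphatase and does not hold the word kinase, so the gene is not in the kinase set. Among protein phosphatases, the A3 event of AT3G63340, of the PP2C family, had 0.45 at 16 °C and 0.78, 0.72 and 0.72 after 1, 3 and 5 days. The A5 event of AT1G51690, a regulatory B subunit of PP2A, had 0.45, then 0.25, 0.29 and 0.29. The median absolute mean change of the 13 events was 0.09, with 5 higher and 8 lower, beside 0.113, 323 and 315 in the table.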

How the data were processed

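Stranded RNA-seq reads were mapped by the authors to TAIR10 with TopHat, and transcripts were assembled with Cufflinks (methods of the study, submitters' processing notes). Events were listed by custom scripts and PSI was estimated by MISO, for which no version is stated. The deposited values are PSI as a fraction from 0.01 to 0.99 in 2 decimals, 1 for each of the 4 groups. The methods describe PSI for single samples and for the merged replicates of a condition, the latter used for calls; the table itself does not name which step gave its group values. Before deposit, the authors filtered events on isoform-specific reads in the replicates and required replicates of a condition to differ less than conditions. A further column holds the days on which the authors called an event different from 16 °C; it was not used. Deeply covered genes can be listed at smaller changes.

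Groups came from the sample titles. The 16 °C value was subtracted from each 25 °C value of an event, and the differences were averaged over the 3 days with pandas 2.3.3 and Python 3.11.15. The tests planned for values per sample could not be run, so counts at a minimum of 0.1 are set beside the same counts over the 638 events. The counting was tested on simulated data. The members, classes and lists were chosen with earlier results of these data known. The keyword rule for classes first placed *CIPK3* among genes named after a kinase only, since its annotation holds the word interacting; it was moved to the protein kinases. The annotation of AT3G53570 does not hold the word kinase, so leaving it out changed nothing. The text names the members except for 1, which is counted in all summaries and not reported here by name, with fuller values for genes with a difference of at least 0.2 on any day or with several events. Phosphatases named as examples were chosen after their values were seen.

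Gene coordinates are the coding spans in the table's annotation; 33 of 34 members had the same span and protein length in the RefSeq TAIR10.1 annotation. Annotated alternatives, overlaps and sequences came from that reference. Similar genes were searched with BLAST 2.17.0, at a minimum of 90% identity over 100 bases. Protein features had been planned and are not reported here.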

Additional observations from a re-analysis of the deposited data

How the results depend on the processing

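Of 60 alternatives run on the summaries over all members, 44 stayed within 1.5 times the count, or 0.01 of the median. Which direction had more events was not stable: on day 1, 14 were higher and 15 lower, but 21 and 20 with a minimum of 0.05, and on day 3, 15 and 13, but 12 and 13 without AT4G03230. With a minimum of 0.05, 23 events were higher and 21 lower on day 3, 24 were higher on day 5, and 17 differed between days 1 and 5. With a minimum of 0.2, 9 were higher and 5 lower on day 1, 7 and 4 on day 3, 5 and 2 on day 5, and 0 differed between days 1 and 5. With 1 event per gene, 9 were at least 0.1 higher on day 1, 9 higher on day 3 and 9 lower on day 5, and the median absolute mean change was 0.113. It was 0.117 without AT4G03230, the gene with most events. Both settings use fewer events, which lowers the counts. Of 18 alternatives on the medians of the whole table and of the classes 5 moved, among them the receptor-like kinases with day 1 alone (0.195). No paired analysis was possible because each group has 1 pooled value with no replicate, and leaving out replicates was not run for the same reason. Depth per event is unknown, so no interval can be given for a PSI.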
